A study of Mus musculus with 12 samples.

Results

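Cyp2e1, the cytochrome P450 enzyme that activates carbon tetrachloride (CCl4), was followed together with 5 genes of the electron supply and partners of P450 enzymes: Por, Cyb5r3, Cyb5a, Cyb5b and Pgrmc1. The 6 genes were taken by symbol and Ensembl identifier from 35709 genes in the deposited table, by a rule that did not use their values. Earlier results of these data were known when they were chosen. RNA was sequenced from hepatocytes of male C57BL/6J mice, 8 to 10 weeks old, 48 h after 1 intraperitoneal injection of CCl4 in olive oil (0.4 mg per g body weight) or of oil alone. Alb-Cre mice, which carry Cre recombinase under the albumin promoter, were the controls, and Alb-R3 mice were described by the submitters as lacking the receptor gene Fgfr3 in hepatocytes only. Both genotypes were given both treatments, so that there were 4 groups of 3 libraries. The livers were perfused with the enzyme mix Liberase, and hepatocytes were enriched by centrifugation and a Percoll gradient. The labels do not say whether replicates were separate animals, and p-values here reflect only how these libraries spread, in part perhaps for technical reasons.

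Cytochrome P450 enzymes are haem proteins of the endoplasmic reticulum that insert oxygen into fatty acids, drugs and solvents, and each turn of the cycle needs electrons from outside the enzyme. Por (P450 oxidoreductase) passes them from NADPH to every microsomal P450. The second electron can also come from cytochrome b5, the product of Cyb5a, which is reduced by Cyb5r3 with NADH or by Por. Cyb5b encodes the b5 of the outer mitochondrial membrane. Pgrmc1 encodes a haem-binding membrane protein that binds P450 enzymes. Cyp2e1 is known from hepatocytes around the central vein, where it turns ethanol, acetaminophen and CCl4 into reactive products, and CCl4 injury begins in those cells.

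The genes differ in the bases before their start sites. RefSeq promoter windows of 250 bases upstream of the start (build GRCm38.p6) were found for 4 of the 6, and 3 are printed because they set the tissue-restricted Cyp2e1 beside Por and Pgrmc1. Capitals mark matches on either strand to the TATA box (TATAAA), the CCAAT box or the GC box (GGGCGG).
Cyp2e1 (chr7:140763569-140763818, plus strand): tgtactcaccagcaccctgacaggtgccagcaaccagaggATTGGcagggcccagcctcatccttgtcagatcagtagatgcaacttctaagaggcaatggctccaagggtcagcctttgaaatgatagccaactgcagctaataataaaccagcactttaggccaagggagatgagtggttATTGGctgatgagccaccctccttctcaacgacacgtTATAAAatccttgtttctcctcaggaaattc
Por (chr5:135688895-135689144, plus strand): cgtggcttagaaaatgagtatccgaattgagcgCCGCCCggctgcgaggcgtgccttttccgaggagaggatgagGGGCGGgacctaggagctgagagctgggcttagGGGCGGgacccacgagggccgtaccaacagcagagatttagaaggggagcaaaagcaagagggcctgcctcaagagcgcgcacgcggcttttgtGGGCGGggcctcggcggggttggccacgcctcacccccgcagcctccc
Pgrmc1 (chrX:36597943-36598192, plus strand): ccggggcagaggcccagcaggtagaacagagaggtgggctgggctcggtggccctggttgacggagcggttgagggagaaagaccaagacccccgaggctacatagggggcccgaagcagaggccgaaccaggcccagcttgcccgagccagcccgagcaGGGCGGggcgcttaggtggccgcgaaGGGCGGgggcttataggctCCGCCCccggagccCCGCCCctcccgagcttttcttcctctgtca
The Cyp2e1 window was 48.8% G and C and held 2 CG pairs. Of 32851 windows of this length, 29.0% held as few CG pairs or fewer. It held a TATAAA at -31 to -26, which 12.4% of windows hold somewhere, and CCAAT on the reverse strand at -210 to -206 and at -68 to -64 (33.8% of windows). The Por window lies inside the annotated span of the gene (chr5:135670033-135735326, 9 transcripts), so it does not precede the outermost start. The Por window was 65.6% G and C with 21 CG pairs, and the Pgrmc1 window 69.6% with 18. Each held 4 GC boxes, which 32.7% of windows hold at least once, and neither matched the TATAAA or CCAAT letters. The Cyb5b window (chr8:107150411-107150660) was 60.4% G and C with 20 CG pairs and held 2 CCAAT on the reverse strand. The E-box CACGTG (6.02% of windows) and the nuclear receptor half-site AGGTCA (14.0%) matched none of the 4 windows. No matches overlapped, and they describe letters, not bound sites.

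The 12 libraries held about 27215000 to 38828900 normalized counts, and all 10 hepatocyte markers were detected in each group. Alb-R3 CCl4 replicate 1 stood apart from the rest. Transcripts of the mitochondrial genome made up 32.3% of its counts and 6.22% to 12.8% of the others. Its 10 hepatocyte markers summed to 5.96% of counts, against 7.70% to 11.8% elsewhere. That share is taken over all counts, so the mitochondrial transcripts themselves lower it and it is no separate sign. The 12 Kupffer cell and macrophage markers of Alb-R3 CCl4 replicate 1 summed to 0.0470%, against 0.00290% to 0.0141% elsewhere. Cholangiocyte markers (0.0175%, at most 0.00429% elsewhere) and neutrophil and monocyte markers (0.00401%, at most 0.000319%) were also highest in it. Every gene of the 6 was therefore also compared without this library. Fgfr3 was not at zero in the Alb-R3 mice: its normalized counts were 523.1, 650.5 and 1109 after oil, where Alb-Cre gave 734.9, 887.6 and 988.1. After CCl4 the Alb-R3 libraries gave 477.7, 372.1 and 382.3, below the 950.9, 705.7 and 753 of Alb-Cre (log2 difference -0.96 ± 0.24, limma, adjusted p = 0.252). A count per gene cannot separate deleted exons, so the genotypes are named as the labels name them.

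Cyp2e1 (ENSMUSG00000025479, chr7:140763739-140774987, plus strand) was lower in every library taken after CCl4 than in any taken after oil, which held for 4.65% of genes. Its normalized counts in Alb-Cre mice were 154500, 152800 and 137000 after oil, and 34280, 15990 and 46370 after CCl4. In Alb-R3 mice they were 177800, 223300 and 170600 after oil, and 1562, 19460 and 22390 after CCl4. The lowest oil library held 137000 and the highest CCl4 library 46370, and the 1562 of Alb-R3 CCl4 replicate 1 stood far under the others. The means were 148100 ± 9650 (SD, n = 3) after oil and 32213 ± 15295 after CCl4 in Alb-Cre mice, 4.60-fold lower. In Alb-R3 mice they were 190567 ± 28576 and 14471 ± 11275 (n = 3 each), 13.2-fold lower, and without replicate 1 the CCl4 mean was 20925 ± 2072 (n = 2).

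In Alb-R3 mice Cyp2e1 fell by 4.43 ± 0.77 (SE) on the scale of log2(normalized count + 1), with a 95% interval of -6.09 to -2.76 (limma, adjusted p = 0.00189). The threshold throughout is an adjusted p of 0.05 over 20244 genes. Without replicate 1 the change was -3.18 (adjusted p = 0.000108). In Alb-Cre mice the log2 difference was -2.33 ± 0.77 (interval -4.00 to -0.66) and did not pass the threshold (adjusted p = 0.123, unadjusted p = 0.00979). It passed when Alb-R3 CCl4 replicate 1, a library outside that comparison which adds to the shared spread, was left out (-2.33, adjusted p = 0.00085). Averaged over the genotypes, a comparison added after the values were seen, Cyp2e1 fell by 3.38 ± 0.55 (adjusted p = 0.000761). The hepatocyte markers, which Alb dominates, summed to 7.70% to 10.2% of counts after oil and to 11.1% to 11.8% in the 5 other CCl4 libraries. Gene by gene, 0 of the 10 markers passed in Alb-Cre mice (median log2 difference -0.02), and 0 rose and 2 fell in Alb-R3 mice (median -0.42). Over all genes, 6.92% were called lower in Alb-R3 mice. In bulk RNA, fewer pericentral cells and less Cyp2e1 RNA per cell cannot be told apart.

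**Figure D1:**
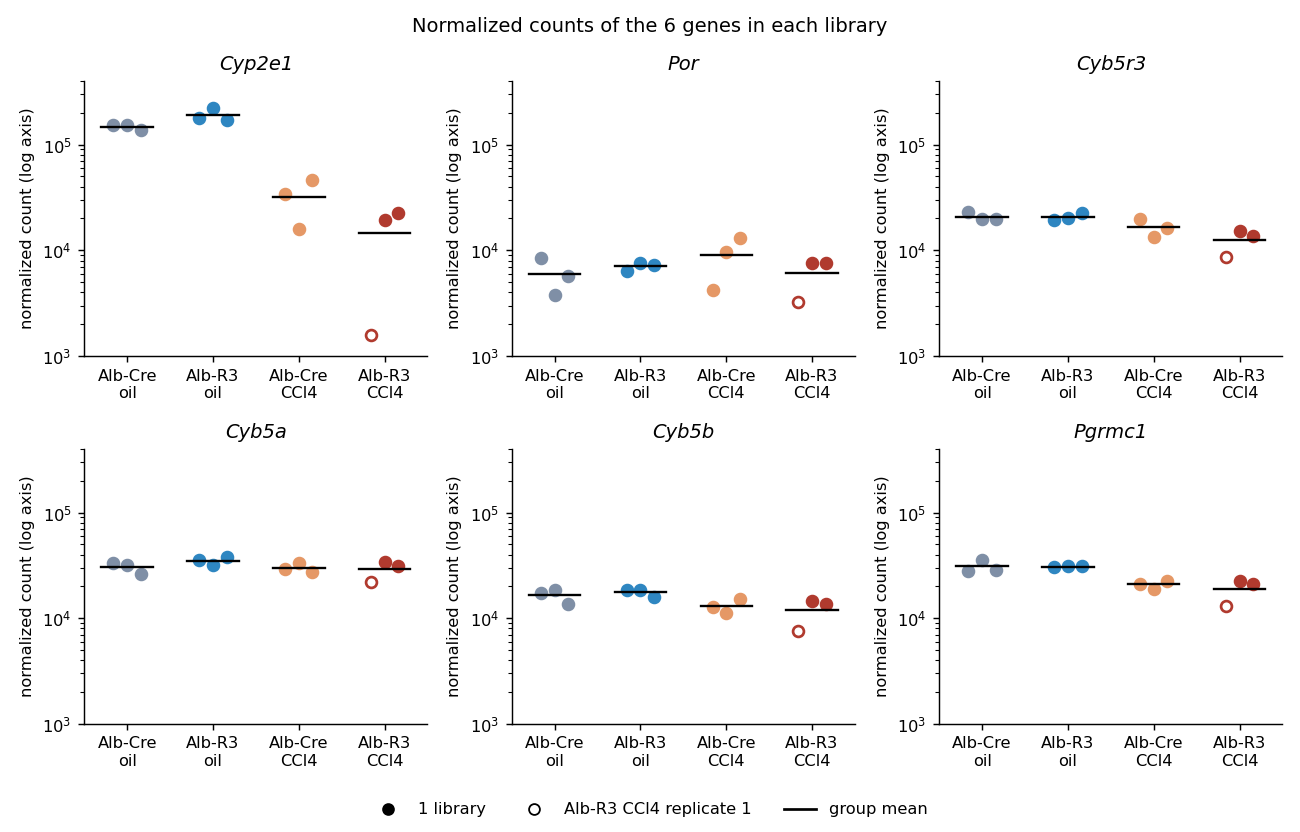
Normalized counts (log axis) of the 6 genes in each of the 12 libraries, by group, with 1 point per library, a bar at the group mean and an open circle for Alb-R3 CCl4 replicate 1. Cyp2e1 drops from 137000 or more after oil to 46370 or less after CCl4, and to 1562 in that library, while Cyb5a stays between 22090 and 37660 in all libraries.

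The genotypes were compared within each treatment. After oil, all 3 Alb-R3 libraries held more Cyp2e1 (170600 to 223300) than all 3 Alb-Cre libraries (137000 to 154500), a ratio of the means of 1.29. This non-overlap was shared by 5.66% of genes in that direction, and the log2 difference was 0.36 ± 0.77 (interval -1.31 to 2.02, adjusted p = 1). After CCl4 the Alb-R3 mean was 2.23-fold lower, with a log2 difference of -1.74 ± 0.77 (interval -3.41 to -0.07, unadjusted p = 0.0419, adjusted p = 0.621). The 19460 and 22390 of Alb-R3 replicates 2 and 3 lay inside the Alb-Cre range of 15990 to 46370. Without Alb-R3 replicate 1 that difference was -0.49 (adjusted p = 0.99). The difference between the genotypes in the size of the CCl4 change was -2.10 ± 1.09 (interval -4.45 to 0.26, adjusted p = 0.744), and -0.85 (adjusted p = 0.816) without that library. A different response of Cyp2e1 in the genotypes was thus not shown, and the intervals are wide.

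Levels of different genes were compared in FPKM, which corrects for transcript length. Cyp2e1 held 3092 to 5007 FPKM after oil, rank 27 to 42 among all genes. It was compared with the microsomal Cyp genes whose symbols have the form of its own, 87 with Cyp2e1. Symbols of another form, such as Cyp51 or those that end in a letter, were left out, so ranks and shares hold only within this set. Cyp2e1 was the first of the 87 in all 6 oil libraries, with 22.5% to 29.6% of their summed FPKM. After CCl4 it held 939.5, 399.5 and 1287 FPKM in Alb-Cre mice and 35.19, 537.1 and 658.8 in Alb-R3 mice. Its rank among the 87 genes was then 4, 6 and 3, and 19, 8 and 5. Its share of the Cyp sum was 8.42%, 5.29% and 8.60% in Alb-Cre mice and 1.06%, 4.80% and 5.95% in Alb-R3 mice, below every oil library. The first rank had passed to Cyp3a11, a steroid and drug hydroxylase, in 4 of 6 CCl4 libraries (1387 to 3338 FPKM) and to Cyp2d26 in the other two. The rest of the 87 genes together held 9887 to 12173 FPKM after oil and 7159 to 13676 in the Alb-Cre CCl4 libraries. In Alb-R3 mice after CCl4 that sum was 3276 in replicate 1 and 10656 and 10409 in the others. Apart from that library and Alb-Cre CCl4 replicate 2, at 7159, the sum without Cyp2e1 lay within or above the oil range. The Cyp sums were formed after the values had been seen.

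**Figure D2:**
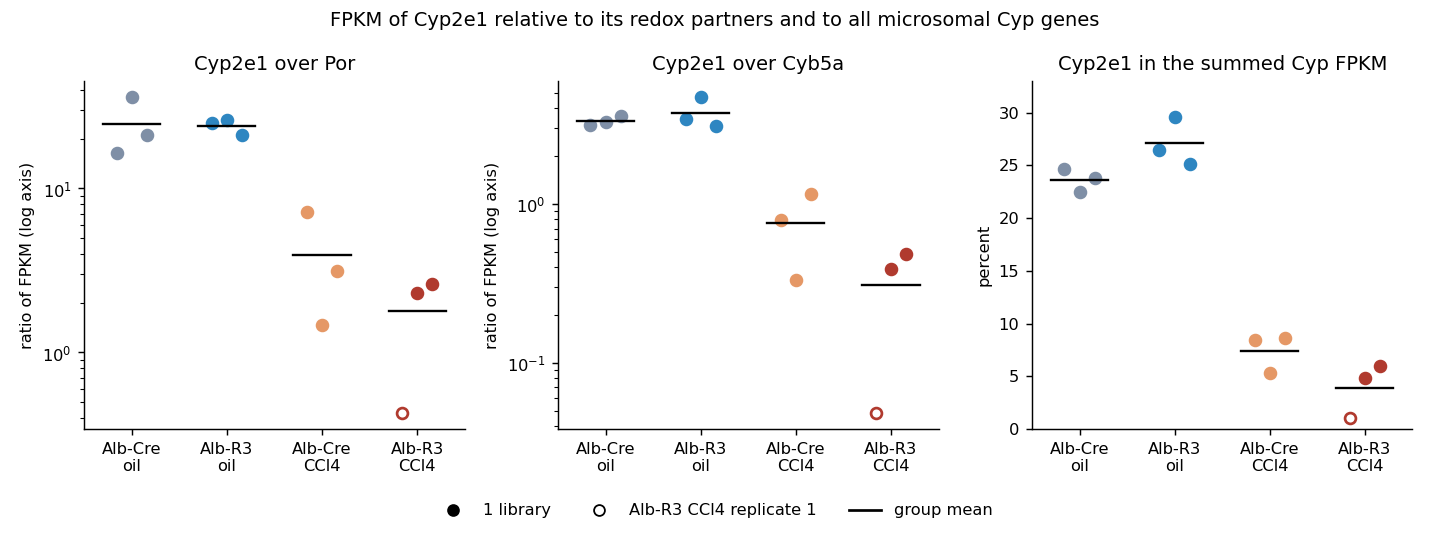
FPKM of Cyp2e1 divided by that of Por and of Cyb5a (log axes) and its percent of the summed FPKM of the 87 Cyp genes (linear axis). There is 1 point per library, a bar at each group mean and an open circle for Alb-R3 CCl4 replicate 1. Cyp2e1 over Por lies at 16.4 or more in the 6 oil libraries and at 7.18 or less in the 6 CCl4 libraries.

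Measured against its electron donor, Cyp2e1 went from a large excess of transcript towards parity. The ratio of Cyp2e1 to Por FPKM was 16.4, 36.2 and 21.2 in Alb-Cre oil libraries and 25.0, 26.1 and 21.1 in Alb-R3 oil libraries. The CCl4 libraries gave 7.18, 1.48 and 3.14 in Alb-Cre mice and 0.426, 2.31 and 2.63 in Alb-R3 mice. The treatments did not overlap, and only in Alb-R3 CCl4 replicate 1 did Por exceed Cyp2e1. The group means after CCl4 were 3.93 ± 2.93 and 1.79 ± 1.19 (n = 3 each), and 2.47 ± 0.222 in Alb-R3 mice without replicate 1 (n = 2). Cyp2e1 over Cyb5a likewise lay at 3.08 to 4.72 after oil and at 0.0481 to 1.16 after CCl4. The summed FPKM of the 87 Cyp genes over Por overlapped between the treatments, at 66.6 to 161 after oil and 28.0 to 85.3 after CCl4. These ratios concern transcripts and say nothing of protein amounts.

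Por (ENSMUSG00000005514, chr5:135670033-135735326, plus strand) did not pass the test in either genotype and spread widely between replicates. Its normalized counts in Alb-Cre mice were 8375, 3764 and 5768 after oil and 4252, 9632 and 13170 after CCl4. In Alb-R3 mice they were 6326, 7611 and 7196 after oil and 3268, 7504 and 7601 after CCl4. The treatments overlapped in both genotypes, with the highest value in Alb-Cre CCl4 replicate 3 and the lowest in Alb-R3 CCl4 replicate 1. The log2 difference was 0.52 ± 0.42 in Alb-Cre mice (interval -0.38 to 1.42, adjusted p = 0.598) and -0.30 ± 0.42 in Alb-R3 mice (interval -1.20 to 0.60, adjusted p = 0.68). In Alb-R3 mice the value was 0.10 without replicate 1. Alas1, the first and rate-limiting enzyme of haem synthesis, spread more widely: 5992, 2884 and 1223 counts in Alb-Cre oil libraries and 1680, 5816 and 10650 after CCl4, and 1456, 2424 and 3996 in Alb-R3 oil libraries and 1938, 6853 and 4109 after CCl4. The span of Por overlaps those of the lincRNA Gm43091 and the pseudogene Gm16061 on the opposite strand. Shared exons were not examined, and the sources used here do not state whether strand was used. Whether reads of these models were counted to Por is thus not known.

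In the NADH branch of the supply, Cyb5r3 fell after CCl4 in Alb-R3 mice and Cyb5a passed the test in neither genotype. Cyb5r3 (ENSMUSG00000018042, chr15:83153494-83172592, minus strand) gave 23030, 19600 and 19890 normalized counts in Alb-Cre oil libraries and 19650, 13320 and 16350 after CCl4, which overlap by 1 library. In Alb-R3 mice it gave 19340, 20320 and 22780 after oil and 8571, 15250 and 13520 after CCl4, which do not overlap, as for 15.5% of genes in that direction. In Alb-R3 mice Cyb5r3 fell by 0.78 ± 0.24 on the log2 scale, 1.67-fold (adjusted p = 0.0397), and in Alb-Cre mice its difference was -0.36 ± 0.24 (adjusted p = 0.511). This result for Alb-R3 mice was lost without replicate 1 (-0.53, adjusted p = 0.0966) and in 8 in all of the 12 fits that each leave out 1 library. The spans of Cyb5r3 and Cyb5a each overlap that of an antisense gene model (Gm49463 and Gm16146). Whether reads of these models were counted to the genes is not known either.

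Cyb5a (ENSMUSG00000024646, chromosome 18, plus strand), the microsomal cytochrome b5, was the steadiest of the genes. Its normalized counts were 33500, 31820 and 26200 in Alb-Cre oil libraries and 29400, 32940 and 27200 after CCl4. In Alb-R3 mice they were 35310, 32150 and 37660 after oil and 22090, 33960 and 31470 after CCl4. All 12 libraries lay within 22090 to 37660 and the treatments overlapped in both genotypes. The log2 differences were -0.03 ± 0.24 (interval -0.54 to 0.48) and -0.29 ± 0.24 (interval -0.80 to 0.23), with adjusted p of 0.979 and 0.456. Their sign depended on the scaling, as both were positive when the libraries were rescaled without mitochondrial transcripts (0.17 and 0.13). After CCl4 Cyb5a held 732.1 to 1379 FPKM and was the highest of the 6 genes in all CCl4 libraries but Alb-Cre replicate 3.

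Cyb5b (ENSMUSG00000031924, chr8:107150640-107187471, plus strand), its mitochondrial counterpart, gave 17460, 18610 and 13640 normalized counts in Alb-Cre oil libraries and 12620, 11210 and 15260 after CCl4. In Alb-R3 mice it gave 18420, 18590 and 15860 after oil and 7489, 14520 and 13710 after CCl4. The groups overlapped in Alb-Cre mice and not in Alb-R3 mice, where 15.5% of genes were lower without overlap. The log2 differences of -0.35 ± 0.26 (adjusted p = 0.561) and -0.62 ± 0.26 (adjusted p = 0.115) did not pass the threshold. By FPKM Cyb5a exceeded Cyb5b by 7.02 to 9.76 times after oil and by 7.32 to 12.1 times after CCl4, and these ranges overlap.

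Pgrmc1 (ENSMUSG00000006373, chrX:36598206-36606079, plus strand) was, beside Cyp2e1, the other gene of the 6 with no overlap between oil and CCl4 libraries. Its normalized counts in Alb-Cre mice were 28130, 35660 and 28880 after oil and 21090, 18910 and 22610 after CCl4. In Alb-R3 mice they were 30300, 31110 and 31010 after oil and 13120, 22340 and 20890 after CCl4. All 6 CCl4 libraries (at most 22610) lay below all 6 oil libraries (at least 28130), which held for 4.65% of genes in that direction. They also did not overlap in FPKM (at most 422.2 against at least 427.2), nor after rescaling without mitochondrial transcripts (25096 against 25403). The means were 1.48-fold lower in Alb-Cre mice and 1.64-fold lower in Alb-R3 mice. In Alb-R3 mice Pgrmc1 fell by 0.75 ± 0.24 on the log2 scale (adjusted p = 0.0442), a call lost without replicate 1 (-0.51, adjusted p = 0.0978) and in 10 in all of those 12 fits. In Alb-Cre mice the difference was -0.56 ± 0.24 (unadjusted p = 0.034, adjusted p = 0.241). Averaged over the genotypes it fell by 0.66 ± 0.17 (adjusted p = 0.0136), also without that library (-0.54, adjusted p = 0.00994). Rescaling without mitochondrial transcripts took the average to -0.35 (adjusted p = 0.121).

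**Figure D3:**
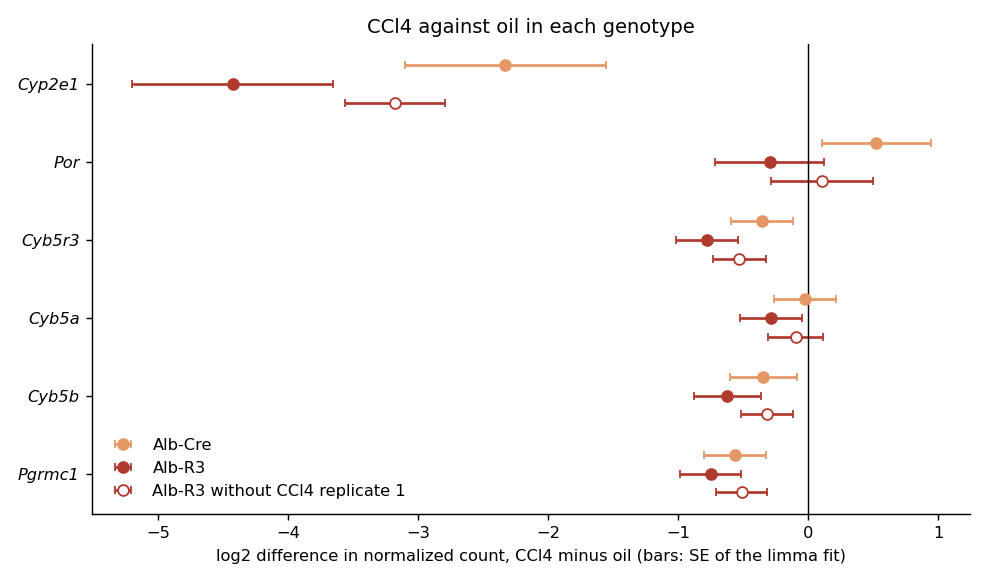
Log2 differences of the 6 genes in normalized count, CCl4 minus oil, in Alb-Cre mice, in Alb-R3 mice and (open circles) in Alb-R3 mice without CCl4 replicate 1, with bars of 1 SE from limma. Cyp2e1 in Alb-R3 mice (-4.43, and -3.18 without the library) is the farthest from 0.

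By count, limma called 0 of the 6 genes for CCl4 in Alb-Cre mice, where 4.45% of all genes passed, and 2 of them (Cyp2e1 and Pgrmc1) had an unadjusted p under 0.05, as had 17.1% of all genes. In those mice the same 2 genes were lower without overlap, which held for 10.4% of genes. In Alb-R3 mice 3 of 6 were called, all lower, where 17.8% of genes were called and 6.92% were called lower. There 4 of 6 were lower without overlap, against 15.5% of genes. Averaged over the genotypes the count was 3 of 6, all lower, beside 21.6% of genes called and 8.78% called lower. Between the genotypes 0 of 6 passed after oil (0.207% of all genes) and after CCl4 (0.173%), and 0 of 6 in the test of a different response (0%). After CCl4 the genotypes overlapped for all 6, and 12% of genes did not overlap. At an unadjusted p under 0.05 these 3 comparisons held 0, 1 (Cyp2e1) and 0 of the 6, beside 6.49%, 7.77% and 7.49% of all genes. Apart from Cyp2e1, the genotype differences after oil ran from -0.00 (Cyb5r3) to 0.31 (Por), and after CCl4 from -0.51 (Por) to -0.05 (Cyb5a).

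In FPKM the order was the same in all 6 oil libraries down to the fourth place: Cyp2e1 first, then Cyb5a (870.1 to 1178), Pgrmc1 (427.2 to 553.4) and Cyb5r3 (236.5 to 280.4). Their ranges did not overlap. Por (97.47 to 212.2) and Cyb5b (110.3 to 153.8) shared the last places and overlapped. After CCl4 the ranges of neighbours overlapped: Cyb5a 732.1 to 1379, Cyp2e1 35.19 to 1287, Pgrmc1 198.8 to 422.2, Por 82.62 to 410.2, Cyb5r3 104.1 to 290.3 and Cyb5b 60.41 to 151.7. Por stood above Cyb5r3 in 4 of the CCl4 libraries and in none of the oil libraries, and in Alb-R3 CCl4 replicate 1 Cyp2e1 was the lowest of the 6.

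The pattern of Cyp2e1 over the 12 libraries was nearest, by Pearson correlation of log2(normalized count + 1) among 9426 genes, to those of Acsm5 (0.989), Serpinf1 (0.987), Auh (0.987), Sult1b1 (0.981) and Itm2b (0.978). Acsm5 encodes a mitochondrial acyl-CoA synthetase, Auh an enzyme of leucine breakdown, and Sult1b1 a sulfotransferase. Acsm5 gave 4919, 4623 and 3977 counts in Alb-Cre oil libraries, 4045, 4971 and 4315 in Alb-R3 oil libraries, 2834, 1919 and 3006 in Alb-Cre CCl4 libraries, and 973.9, 2443 and 2294 in Alb-R3 CCl4 libraries. It had the same order of treatments and the same lowest library, but a smaller range than Cyp2e1. Over 11 libraries, without Alb-R3 CCl4 replicate 1, the list read Cyp2c37 (0.982), Cir1 (0.977), Acsm5 (0.974), Fitm1 (0.973) and Serpinf1 (0.970), so 2 names were in both. These correlations are descriptions across libraries that share treatment groups.

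Among the 6 genes, Cyp2e1 ran closest to Pgrmc1 (0.967), Cyb5r3 (0.942) and Cyb5b (0.917), less so to Cyb5a (0.606), and least to Por (0.256). Over 11 libraries these were 0.936, 0.866, 0.802, 0.153 and -0.279, so the relation to Por changed sign with 1 library. The nearest genes to Por were Dtnb (0.846), Hadha (0.827) and Bdh1 (0.809), and over 11 libraries Rhbdd2 (0.967) and Plpp2 (0.909). Cyb5a ran with Nrep (0.914), Sft2d1 (0.913) and Slc46a3 (0.887), Cyb5b with Srr (0.985), Osbpl1a (0.981) and Sox6 (0.980), and Cyb5r3 with Serpinf1 (0.977), Bphl (0.973) and Rarres2 (0.972). Pgrmc1 ran with Lactb2 (0.978), Pex7 (0.977), a receptor of peroxisomal import, and Tspan12 (0.976). Without the library only Cyb5b (Srr and Osbpl1a) and Cyb5r3 (Serpinf1) kept any of these names among the nearest. The names that dropped out still correlated over 11 libraries. Values were 0.954 to 0.957 for Pgrmc1, 0.953 for Cyb5b with Sox6, and 0.943 and 0.933 for Cyb5r3 with Bphl and Rarres2. They were lower for Cyb5a (0.807 to 0.850) and Por (0.711 to 0.775).

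**Figure D4:**
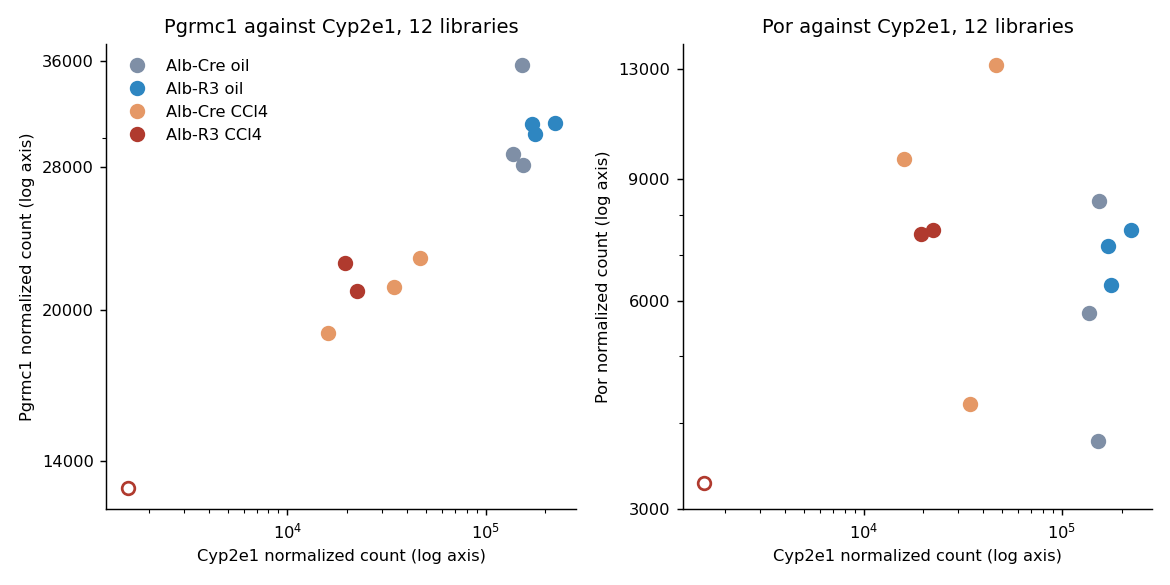
Normalized counts of Pgrmc1 and of Por (log axes) against those of Cyp2e1, with 1 point per library, colours for the 4 groups and an open circle for Alb-R3 CCl4 replicate 1. Pgrmc1 is ordered much as Cyp2e1 (correlation 0.967) and Por is not (0.256).

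Genes around the 6 were followed in lists. Over all genes, 3.46% were called higher and 0.988% lower after CCl4 in Alb-Cre mice, and 10.9% and 6.92% in Alb-R3 mice. Of other redox partners (13 of 14 measured above the filter), 1 rose and 2 fell in Alb-Cre mice after CCl4, and 0 rose and 4 fell in Alb-R3 mice. The median log2 differences were -0.18 and -0.33, beside 0.02 and 0.00 over all genes. Fdx1, the ferredoxin that feeds mitochondrial P450 enzymes, gave 1937, 1808 and 2309 counts in Alb-Cre oil libraries and 1380, 1069 and 1105 after CCl4, and 2567, 2260 and 2882 in Alb-R3 oil libraries and 954.3, 1455 and 1167 after CCl4. The groups did not overlap, as for 10.4% of genes in that direction in Alb-Cre mice and 15.5% in Alb-R3 mice. Fdx1 fell by 0.77 ± 0.18 (adjusted p = 0.0284) and by 1.12 ± 0.18 (adjusted p = 0.00112). Marc1, a molybdenum enzyme that takes electrons from Cyb5b and Cyb5r3, also fell in both genotypes (-0.75 and -0.85). Marc2 (-0.71) and Pgrmc2 (-0.72), the close relatives of Marc1 and Pgrmc1, fell in Alb-R3 mice, and the reductase Cyb5r1 rose in Alb-Cre mice (0.74 ± 0.16). When each of the 12 libraries was left out in turn, the Alb-Cre calls were lost in 4 fits for Fdx1 (adjusted p at most 0.129), 4 for Marc1 (0.0748) and 5 for Cyb5r1 (0.109). The Alb-R3 call of Marc2 was lost in 1, without Alb-R3 oil replicate 3 (0.0752). Other scalings and settings brought the fits to 23. Of these, the Alb-Cre calls were lost in 10 for Fdx1 (adjusted p at most 0.200), 7 for Marc1 (0.151) and 6 for Cyb5r1 (0.109). The Alb-R3 call of Marc2 was lost in 5 of the 23 (0.247). The split of this list in Alb-R3 mice depended on the scaling, with 4 higher and 1 lower when mitochondrial transcripts were left out of it, and 2 and 1 in FPKM.

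Of 12 genes of haem synthesis and breakdown, 0 passed in Alb-Cre mice and 1 rose in Alb-R3 mice (medians -0.01 and -0.09). Over all genes in Alb-R3 mice, 10.9% were called higher and 6.92% lower. That gene was Hmox1, which opens the haem ring: 205.7, 191.5 and 139.6 counts after oil and 713.9, 353.1 and 403.1 after CCl4 in Alb-R3 mice (1.40 ± 0.27, adjusted p = 0.00359). In Alb-Cre mice Hmox1 gave 322.3, 275.1 and 226.7 after oil and 253.8, 245.9 and 353.2 after CCl4, which overlap. Alas1 did not pass in either genotype (0.77 ± 0.69 and 0.65 ± 0.69). Of 9 enzymes of NADPH supply, 0 passed in Alb-Cre mice and 2 rose and 1 fell in Alb-R3 mice (medians -0.23 and -0.32). G6pdx, the entry of the pentose phosphate pathway, gave 116, 112.2 and 127.7 after oil and 296.1, 271 and 627.5 after CCl4 in Alb-R3 mice (1.63 ± 0.33, adjusted p = 0.00473). Pgd of the same pathway rose too (0.84), a call lost in 9 of the 12 fits that each leave out 1 library (adjusted p at most 0.149), and Aldh1l1, which makes NADPH in folate metabolism, fell by 1.26. In the same libraries the macrophage markers summed to 0.00990% to 0.0470% of counts after CCl4 and 0.00290% to 0.00375% after oil. In Alb-Cre mice these sums were 0.00604% to 0.00797% and 0.00451% to 0.00878%. All 12 markers were detected, 12 of them rose in Alb-R3 mice and 0 in Alb-Cre mice, and their part in the rise of Hmox1 and G6pdx was not tested.

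Of 12 other enzymes fed by Por or cytochrome b5, Scd2, a fatty acid desaturase, rose in both genotypes and Sc5d, a cholesterol synthesis enzyme, fell in Alb-R3 mice (-0.81), though not without replicate 1 (-0.57, adjusted p = 0.10), and the call was lost in 8 of the 12 fits that each leave out 1 library. Scd2 gave 25.29, 24.38 and 25.07 counts in Alb-Cre oil libraries and 194, 60.84 and 118.5 after CCl4, and 12.06, 10.23 and 10.65 in Alb-R3 oil libraries and 156, 228.5 and 358.1 after CCl4. Its log2 differences were 2.12 ± 0.41 (adjusted p = 0.0076) and 4.30 ± 0.41 (adjusted p = 2.1e-05). In Alb-R3 mice the 10 endothelial markers summed to 0.00519% to 0.00541% of counts after oil and 0.0122% to 0.0194% after CCl4, and the 10 stellate cell markers to 0.00148% to 0.00196% and 0.00402% to 0.0117%, with 8 and 9 of the 10 called higher. In Alb-Cre mice the endothelial sums were 0.00873% to 0.0123% and 0.0117% to 0.0180%, with 0 of 10 called, and the stellate sums 0.00354% to 0.00392% and 0.00604% to 0.00890%, with 4 of 10 called higher. Their part in the rise of Scd2 was not tested. The list's medians were -0.04 and -0.28. Over all genes, 3.46% were called higher and 0.988% lower in Alb-Cre mice, and 10.9% and 6.92% in Alb-R3 mice. Of 5 genes of P450 protein turnover, Ube2g2, a ubiquitin-conjugating enzyme of the endoplasmic reticulum, rose in both (0.67 and 0.73) and the other 4 did not pass. Its call in Alb-Cre mice was lost in 6 of those 12 fits (adjusted p at most 0.12).

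Of 20 pericentral genes, which share the position of Cyp2e1 in the lobule, 0 rose and 4 fell in Alb-Cre mice and 0 rose and 11 fell in Alb-R3 mice. Over all genes, 0.988% and 6.92% were called lower. The median log2 differences were -0.55 and -1.50, and -0.77 in Alb-R3 mice without replicate 1, where 10 fell. Slc1a2, Oat and Glul fell in both genotypes. The glutamate transporter Slc1a2 gave 658.1 to 1033 counts in the 6 oil libraries and 1.99 to 10.32 in the 6 CCl4 libraries, with log2 differences of -7.74 ± 0.39 (adjusted p = 7.4e-07) and -7.11 ± 0.39 (adjusted p = 3.6e-07). Oat, an ornithine aminotransferase, fell in both (-3.41 and -3.33), as did the glutamine synthetase Glul (-1.98 and -1.96). Cyp2a5, a coumarin hydroxylase, fell in Alb-Cre mice (-4.36 ± 1.09, adjusted p = 0.0382) from 12050 to 16690 counts down to 926.1, 63.39 and 4692. This call was lost in 9 of the 12 fits that each leave out 1 library (adjusted p at most 0.126), with a difference of -2.69 without Alb-Cre CCl4 replicate 2 and -5.79 without replicate 3. In Alb-R3 mice it gave 6525, 9212 and 11020 after oil and 3304, 9061 and 19670 after CCl4, which overlap. Cyp2c37 fell in Alb-R3 mice by 3.66 ± 0.92 (adjusted p = 0.0155), from 6731 to 7344 counts down to 60.56, 1357 and 2043, with -2.07 without replicate 1. Cyp27a1, a sterol hydroxylase (-1.69), and Cyp2c54 (-2.67, and -1.32 without replicate 1) fell there too. The call of Cyp2c54 was lost when any Alb-R3 oil library was left out (adjusted p at most 0.089).

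Of 12 transcription factors linked to Cyp2e1 or Por, Cebpa fell in both genotypes (-1.15 ± 0.30, adjusted p = 0.044, and -1.30 ± 0.30, adjusted p = 0.0093). Its call in Alb-Cre mice was lost in 8 of the 12 fits that each leave out 1 library (adjusted p at most 0.199). Nr1i3 (CAR), a receptor that induces Por and drug-metabolising P450 genes, gave 7578, 9256 and 9144 counts after oil and 3716, 3483 and 4555 after CCl4 in Alb-R3 mice, and fell by 1.15 ± 0.27 (adjusted p = 0.0111). In Alb-Cre mice it gave 7134, 5011 and 12080, and 5871, 6859 and 4629, which overlap (-0.40 ± 0.27, adjusted p = 0.508). Nr1i2 (PXR) fell in Alb-R3 mice (-0.77), but not without replicate 1 (-0.62, adjusted p = 0.12), and the call was lost in 8 of those 12 fits. Hnf4a, a factor of hepatocyte identity, had log2 differences of 0.09 ± 0.31 (adjusted p = 0.932) and -0.16 ± 0.31 (adjusted p = 0.768), and its sign in Alb-R3 mice turned under other scalings. The medians of this list were -0.02 and -0.34, and 0.988% and 6.92% of all genes were called lower. Over all 83 list genes, limma called 0 between the genotypes after oil, after CCl4 and in the test of a different response, with 8, 9 and 6 at an unadjusted p under 0.05. These were 9.64%, 10.8% and 7.23% of the list genes, beside 6.49%, 7.77% and 7.49% of all genes.

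**Figure D5:**
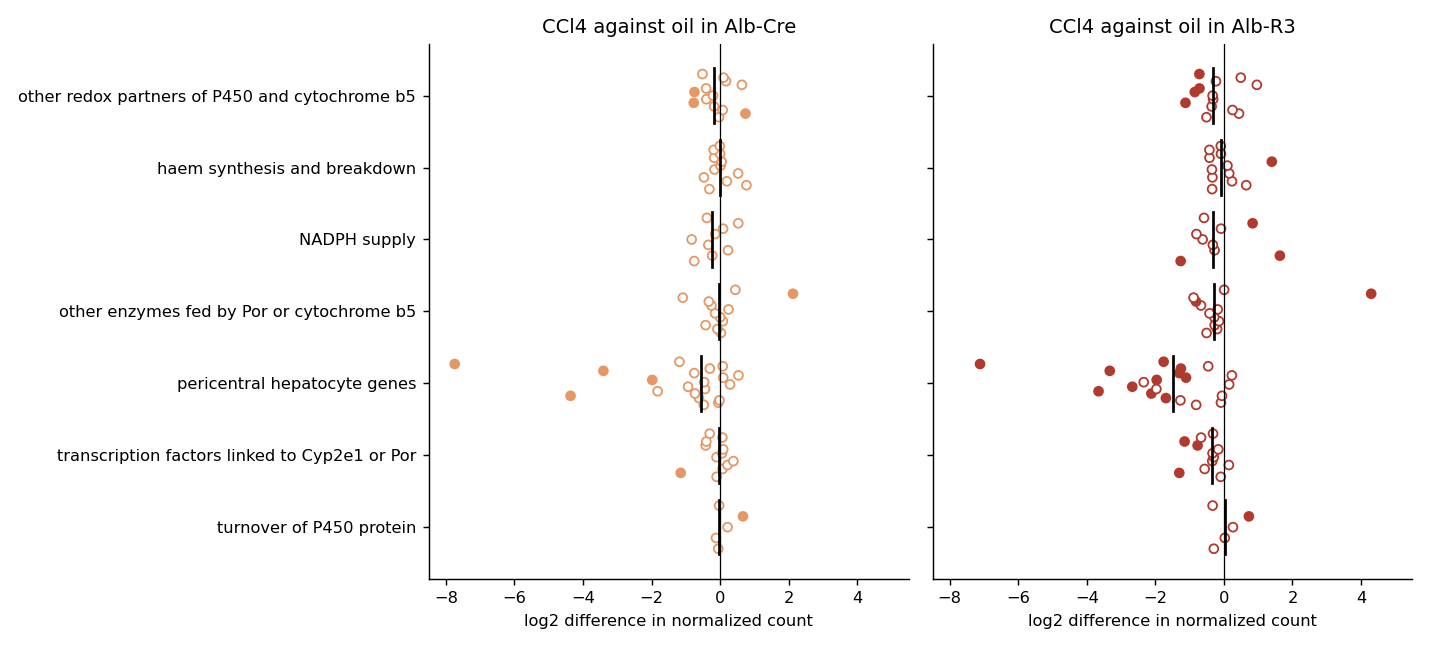
Log2 difference, CCl4 against oil, of every tested gene of the 7 lists in each genotype, with filled circles past the threshold and a black bar at the list's median. The pericentral list lies lowest, with medians of -0.55 in Alb-Cre mice and -1.50 in Alb-R3 mice.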

How the data were processed

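RNA-seq of 12 hepatocyte libraries was used. Per the submitters' processing notes, kallisto 0.44.0, edgeR and build GRCm38.p6 were involved, with no role given. Per the file headers, the authors deposited 2 values per gene and library: a normalized count (a signal scaled between libraries by a method not given in the sources used here) and FPKM. Of low normalized counts, 69.6% to 74.3% were whole multiples of 1 read's worth (tolerance 0.02). The values were therefore not taken as raw counts, and no count test was run. Instead, limma 3.58.1 (R 4.3.3) with a mean-variance trend was fitted to log2(normalized count + 1) over all 4 groups. The fit covered the 20244 genes that reached 1 in 3 or more libraries. Adjusted p-values are Benjamini-Hochberg within each comparison, and intervals are 95%. The fold changes understate those of low genes. FPKM served for levels between genes. Of the table's identifiers, 35574 matched a symbol and 135 did not. Gene positions are from GENCODE M21. Python 3.11.15 with pandas 2.3.3 was used for descriptions, and the fit was tested on simulated data.

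The genes and lists were chosen with earlier results of these data known. A plan to name up to 3 genes in each direction per list and comparison was not kept. List genes that passed the threshold for CCl4 in a genotype were named, with Hnf4a, Nr1i3, Alas1 and Hmox1 always. Left unnamed above were the pericentral genes Cyp2c29, Tbx3, Lgr5, Gulo and Rgn, which were also called lower in Alb-R3 mice. The call of Cyp2c29 was lost in 8 of the 12 fits that each leave out 1 library. One of these was without Alb-R3 CCl4 replicate 1 (-1.08, limma, adjusted p = 0.10). In the same 12 fits Rgn lost its call in 3, Gulo in 2, Lgr5 in 1 and Tbx3 in 0. Some results are not reported here. Alternatives were other pseudocounts, filters, scalings, FPKM, no trend, library weights, the groups compared alone, a replicate block and leaving out each library. Of 18 pairs of libraries with the same replicate number, 3 had deviations from their group means correlated above 0.1 (range -0.19 to 0.20). Pairs with different numbers were not examined, so whether the numbers pair the libraries is not settled.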

Additional observations from a re-analysis of the deposited data

How the results depend on the processing

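For Cyp2e1 after CCl4 in Alb-R3 mice, all 23 alternatives stayed past the threshold (-5.10 to -3.18). In Alb-Cre mice it passed in 3 of 23: with library weights (-2.22), with the 2 groups alone (-2.33) and without Alb-R3 CCl4 replicate 1 (-2.33), and each raised the count of called genes from 0 to 1. Leaving out each library gave -2.66 to -1.89 and a count of 0 to 1. In Alb-R3 mice the count of 3 became 1 under quantile scaling, rescaling without mitochondrial transcripts, FPKM, no filter, the 2 groups alone and the replicate block, and 1 to 3 when each library was left out. Cyb5r3 lost its call there in 8 of 12 such fits (adjusted p at most 0.113) and Pgrmc1 in 10 of 12 (at most 0.112). Both kept it when Alb-Cre oil replicate 3 or Alb-R3 CCl4 replicate 2 was dropped, and Cyb5r3 also without Alb-Cre CCl4 replicates 1 and 2. With the replicate block Cyb5r3 had an adjusted p of 0.0697 and Pgrmc1 of 0.0645, and Cyp2e1 stayed past the threshold. The averaged count of 3 became 1 under quantile scaling, rescaling and FPKM, and 2 to 4 when each library was left out.

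Rescaling without mitochondrial transcripts shifted the median of all genes by 0.19 (Alb-Cre), 0.37 (Alb-R3) and 0.12 (genotypes after CCl4), and FPKM by 0.15 and 0.17. Signs turned only for differences under the threshold. For CCl4 in Alb-Cre mice, Cyb5a became 0.28 (quantile), 0.17 (rescaled) and 0.20 (FPKM), Hmox1 -0.072 (quantile) and -0.073 (weights), and with weights Hnf4a -0.085. In Alb-R3 mice, Cyb5a became 0.31 (quantile) and 0.13 (rescaled), Por 0.017 (quantile), 0.12 (rescaled) and 0.062 (weights), and Hnf4a 0.22 (quantile), 0.25 (rescaled), 0.10 (FPKM) and 0.10 (weights). Averaged, Cyb5a became 0.295 (quantile), 0.15 (rescaled) and 0.092 (FPKM). Between genotypes after oil, Pgrmc1 became -0.023 (quantile), -0.075 (rescaled) and -0.051 (FPKM), and Por -0.060 (weights). After CCl4, Cyb5a became 0.20 (quantile), 0.086 (rescaled) and 0.14 (weights), and Cyb5b 0.029 (weights). In the test of a different response, Cyb5a became 0.025 (quantile) and 0.042 (weights), and Pgrmc1 0.027 (rescaled). The cause was not tested.

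Leaving out each library also turned signs. For CCl4 in Alb-Cre mice the ranges were -0.13 to 0.043 (Cyb5a), -0.12 to 0.17 (Hmox1) and -0.22 to 0.28 (Hnf4a). In Alb-R3 mice they were -0.50 to 0.10 (Por) and -0.37 to 0.13 (Hnf4a), and averaged -0.061 to 0.35 (Por). After oil they were -0.036 to 0.19 (Cyb5b), -0.068 to 0.073 (Cyb5r3) and -0.059 to 0.11 (Pgrmc1). After CCl4 they were -0.17 to 0.14 (Cyb5a), -0.35 to 0.13 (Cyb5b) and -0.33 to 0.054 (Pgrmc1). For a different response they were -0.45 to 0.029 (Cyb5b) and -0.33 to 0.049 (Pgrmc1).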
